A study of Homo sapiens with 9 samples.

Results

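The 59 genes described here encode the machinery that copies DNA and the factors that switch it on at the boundary of G1 and S phase. They were a fixed list of gene symbols, matched through Ensembl identifiers to the 36753 genes with deposited values, and all 59 were found. The list was not chosen by a threshold on any value, but earlier results of these data were known when it was chosen. It was split by role into 12 licensing genes, 8 genes of helicase activation, 7 of the sliding clamp and its loader, 11 polymerase subunits, 5 genes of the lagging strand and single-strand binding, 5 of chromatin copying and CDT1 turnover, 4 of nucleotide supply, and 7 E2F factors and E-type cyclins.

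Transcripts were measured by RNA sequencing in PANC-1, an established human pancreatic carcinoma cell line, 48 hours after transfection with short interfering RNAs. The 9 libraries form 3 groups of 3, which received siRNA against SIRT6 (siSIRT6), siRNA against KDM5C (siKDM5C) or a control siRNA (control). All groups are the same unmodified line, and the labels name neither the sequences nor the number of siRNAs per target. The labels do not say that replicates were separate cultures, so p-values measure a spread that may be technical. SIRT6 is a chromatin-bound enzyme that removes acyl groups from histones, and KDM5C is a demethylase of lysine 4 of histone H3.

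Before S phase, the origin recognition complex, CDC6 and CDT1 load the MCM helicase onto origins, a step called licensing. Kinases then recruit CDC45 and the GINS complex, which turn the loaded helicase into a moving motor, and polymerases follow with the PCNA clamp. E2F transcription factors, held back by the retinoblastoma family until cyclin-dependent kinases release them, are known to drive many of these genes as cells pass from G1 into S phase, and cancer cell lines commonly express them at high levels.

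Values are FPKM (fragments per kilobase of gene, divided by library depth). Fold changes are differences of log2(FPKM + 1) with their standard error (SE), and understate the change of genes with low values. A gene was called higher or lower when its Benjamini-Hochberg adjusted p, over the 16135 genes that reached 1 FPKM in 3 or more libraries, was under 0.05 in limma's two-sided moderated test. Of the 59 members 58 were tested, and 54 had at least 1 FPKM in all 9 libraries. The untested member was E2F2, which had 0.0569 to 0.208 FPKM. No member passed the filter through a single group alone.

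Exon bases shared with another gene make some values uncertain, on the opposite strand because the sources used here do not give the strand counted. On the same strand the shared part was 35.1% for POLA2, 28.8% for PCLAF, 20.2% for RRM2, 16.2% for PRIM1 and 8.6% for POLD1. On the opposite strand it was 46.6% for TYMS, 37.1% for CCNE2, 23.6% for MCM2 and for GINS4, 10.9% for GINS3, 10.6% for RFC5, 8.9% for MCM7, 6.7% for FEN1 and 5.4% for PRIM1. The same-strand partners had no values in the data, nor did the partners of MCM2, GINS3 and GINS4. These shares are from GENCODE release 29, whose exon lengths differ from those implied by the values for most members. For RRM2 they were 5323 and 9153 bases.

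Each siRNA lowered its labelled target. SIRT6 had 0.795, 0.509 and 0.487 FPKM in siSIRT6 libraries, 5.05, 4.60 and 5.39 FPKM in siKDM5C libraries, and 6.20, 5.17 and 7.17 FPKM in control libraries. KDM5C had 3.65, 3.31 and 3.89 FPKM in siKDM5C libraries, 17.9, 17.6 and 17.9 FPKM in siSIRT6 libraries, and 18.0, 18.4 and 18.8 FPKM in control libraries. Each target's lowest 3 libraries were therefore those of its own siRNA, without overlap.

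The libraries held 18201413 to 26910441 implied reads in genes, with siSIRT6 replicate 3 the deepest, and a tested member had 43 to 3669 of them. Pearson's r of log2(FPKM + 1) across genes was 0.98 to 0.99 within groups and 0.943 to 0.965 between them, and genes are not independent replicates. Mitochondrial transcripts took 6.53% to 6.91% of reads in siSIRT6, 5.67% to 6.61% in siKDM5C and 8.1% to 9.81% in control. Keratins KRT8, KRT18 and KRT19 and vimentin (VIM) had at least 138 FPKM in every library, with KRT19 higher in siSIRT6 (1.03, adjusted p = 1.35e-05) and KRT8 lower in siKDM5C (-0.94, adjusted p = 2.65e-05). EPCAM had 0.841 to 3.52 FPKM and KRT7 had 3.11 to 7.13 FPKM. These carcinoma markers moved in both directions within each knockdown. In siSIRT6 KRT18 (0.36), VIM (0.44) and EPCAM (0.36) were also higher, KRT7 was lower (-0.45) and KRT8 did not pass (0.17). In siKDM5C EPCAM (0.98) and VIM (0.46) were higher, KRT18 (-0.45) and KRT7 (-0.60) were also lower, and KRT19 did not pass (0.04). Of 12 markers of blood, endothelial, fibroblast, acinar and islet cells, 8 had values, and 6 of those, including PTPRC, PECAM1 and COL1A2, stayed at or under 0.0571 FPKM. CD68 and COL1A1 moved in different groups: COL1A1 was higher in siSIRT6 (1.32, adjusted p = 1.07e-06) and had -0.04 in siKDM5C, while CD68 was higher in siKDM5C (0.81, adjusted p = 0.00101) and had -0.32 in siSIRT6, which did not pass. They set the summed marker level, which was 76.5 to 78.1 FPKM in siSIRT6, 85.2 to 106 FPKM in siKDM5C and 56.1 to 71.3 FPKM in control. The part of these differences in the results below was not tested.

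The members as a whole were lower in siSIRT6 and divided in siKDM5C. Against control, 41 of 58 members were lower in siSIRT6 (70.7%, where 26.9% of all tested genes were lower) and 2 were higher (background 23.9%). The 43 members called in either direction were 74.1% of those tested, against a background of 50.8%. The median log2 fold change of the members was -0.34, and that of all tested genes was -0.045. In bulk RNA, fewer cells in S phase and less RNA per cell cannot be told apart.

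In siKDM5C 25 of 58 members were higher than in control (43.1%, background 25.6%), and 8 were lower (13.8%, background 25.9%). Calls in either direction covered 33 members, or 56.9%, which is close to the background of 51.5%. By role, calls in siKDM5C covered 41.7% of licensing genes, 42.9% of clamp and loader genes, 45.5% of polymerase genes, 2 of 4 nucleotide supply genes and 1 of 5 lagging strand and single-strand binding genes, near or under that background, so their counts below are no result about these groups. The same holds for the 2 of 5 chromatin copying genes called in siSIRT6. There 57.1% of clamp and loader genes were called, close to the background of 50.8%. Licensing had 91.7%, polymerases 81.8%, the lagging strand group 100% and nucleotide supply 75%. Helicase activation had 62.5% (5 of 8) and the E2F group 66.7% (4 of 6), nearer that background. The helicase activation calls include CDC7, whose call was lost under 10 of the 17 alternatives. In siKDM5C the shares were 87.5% for helicase activation, 100% for chromatin copying and 83.3% for the E2F group. The median log2 fold change of the members in siKDM5C was 0.13, where all tested genes had -0.019.

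Both comparisons use the same 3 control libraries, so the difference between the knockdowns was tested directly. In siSIRT6 47 of 58 members were lower than in siKDM5C (81.0%, background 21.3%) and 3 were higher (background 18.6%), and the 50 calls in either direction were 86.2% of members against a background of 39.9%. The 3 higher ones were ORC2, POLD2 and CCNE1. The median difference was -0.56, where all tested genes had -0.024.

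Separation library by library is given for all 59 members, including the untested E2F2, while its backgrounds are those of tested genes. All 3 siSIRT6 libraries lay above or below all 3 control libraries for 52 of the 59 members (88.1%, background 65.5%), and for 48 of them they lay below. The siKDM5C and control libraries did not overlap for 35 members (59.3%, background 55.7%), which is close to the background and no result about the members. Between siSIRT6 and siKDM5C the libraries did not overlap for 53 members (89.8%, background 51.7%).

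**Figure D1:**
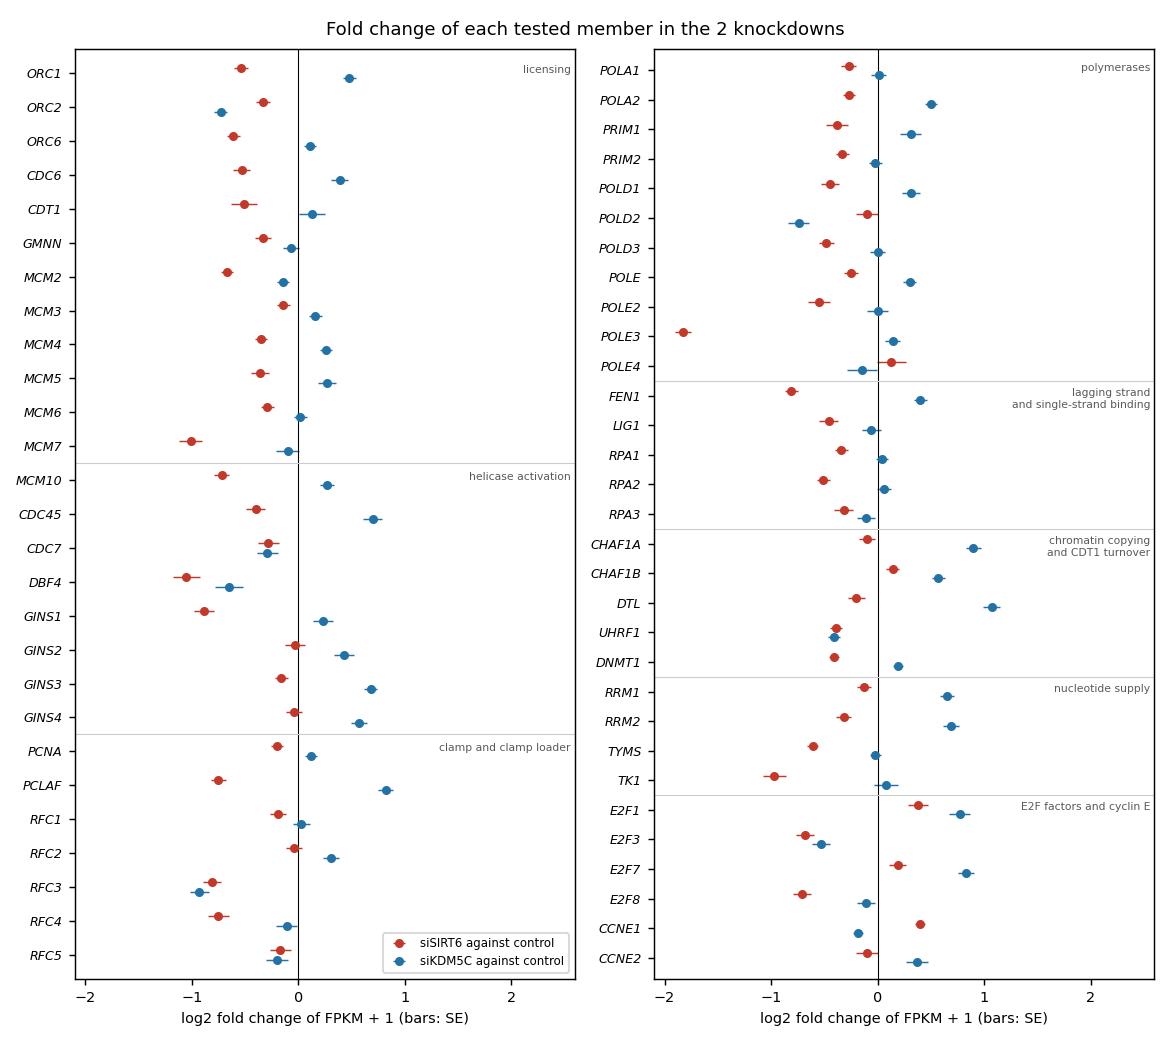
Log2 fold change of FPKM + 1 (x axis) of the 58 tested members, by role, in siSIRT6 (red) and siKDM5C (blue) against control; points are estimates and bars are SE. Most red points lie left of 0, with POLE3 farthest at -1.83, while blue points lie on both sides, from -0.93 for RFC3 to 1.07 for DTL; both colours share the same control libraries.

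**Figure D2:**
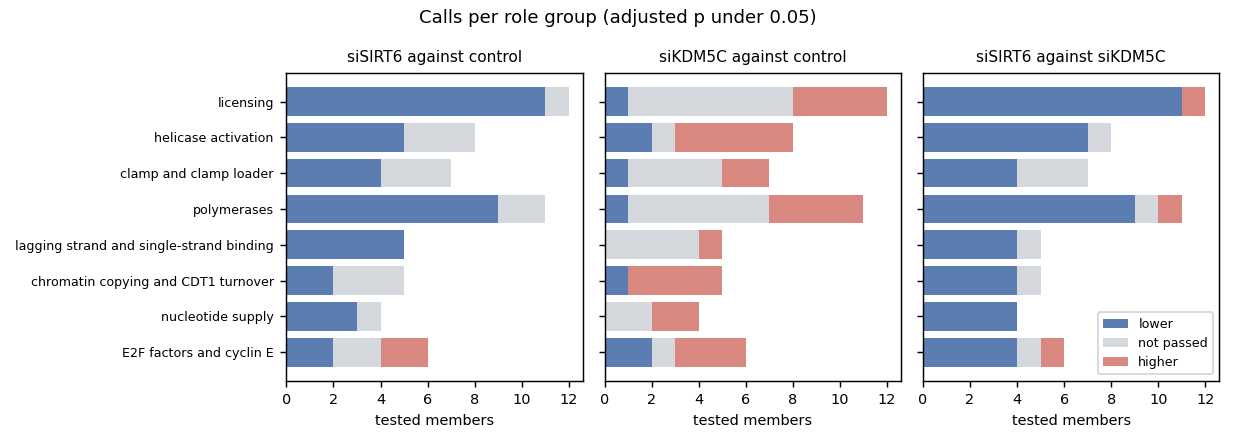
Number of tested members (x axis) called lower (blue), not past the threshold (grey) or higher (red) per role group (rows), in each of the 3 comparisons. In siSIRT6 against control 11 of 12 licensing genes and 9 of 11 polymerase genes were lower, where 26.9% of all tested genes were lower. In siKDM5C against control 4 of 5 genes of chromatin copying and CDT1 turnover were higher, where 25.6% of all tested genes were higher.

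The promoters of these genes give the sequence setting in which E2F factors are known to act. RefSeq promoter entries (GRCh38.p14, 250 bases before to 50 after the gene's start) matched 51 of the 59 members. The letters TTTCCCGC, TTTCGCGC, TTTGCCGC and TTTGGCGC, searched on both strands and called E2F-type here, occurred in 24 of the 51 member promoters (47.1%), in 3.33% of all 27303 promoters and in 5.6% of the 9799 promoters of tested genes. The letters CCAAT occurred in 54.9% of member promoters and 35.7% of all promoters. The letters TTTGAA or TTCGAA, known from cell cycle homology regions, occurred in 7.84% of member promoters (4 of 51), 16.6% of all promoters and 10.9% of those of tested genes. Matches that overlap were each counted. A match describes letters and is not evidence of binding.

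Of the 31 E2F-type matches, 25 began no more than 100 bases before the start or after it, with a median of 33 bases before it. The windows below show these letters in capitals with 10 bases on either side, on the gene's own strand, for 8 members whose values are given in full. They are shown because members with different calls carry such letters. The matches shown begin from 55 bases before the start (RFC3) to 7 bases after it (CDC6). MCM7 and E2F1 each hold a second match that is not shown, 187 bases before the start for MCM7 and 33 for E2F1. The single matches of POLE4 (31 bases before the start) and E2F2 (42 bases before it) are not shown either. The GINS1 window lies at chr20:25407668-25407695 (+ strand), RFC3 at chr13:33818084-33818111 (+), DTL at chr1:212035730-212035757 (+), E2F3 at chr6:20401816-20401843 (+), CDC6 at chr17:40287876-40287903 (+), POLA2 at chr11:65261899-65261926 (+), MCM7 at chr7:100101389-100101416 (-) and E2F1 at chr20:33686388-33686415 (-).
MCM7: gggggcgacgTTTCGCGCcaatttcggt
GINS1: gctttgttcgGCGCCAAAgcgcggagcg
RFC3: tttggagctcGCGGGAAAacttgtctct
DTL: gtgacgtcagTTTGGCGCggagtttggc
E2F3: tgaaaagccgGCGGGAAAtccgagtttc
E2F1: gcaaaaaggaTTTGGCGCgtaaaagtgg
CDC6: gccattcggaTTTGGCGCgagcgcggct
POLA2: tggctcccggTTTCGCGCatgcgtgcac

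The whole 300-base promoters of POLE3 and DTL are shown because these members had the largest fall and the largest rise of the list. The POLE3 entry lies at chr9:113410700-113410999 (- strand) and held none of the letters searched. It lies wholly upstream of the POLE3 gene position given below, which comes from another annotation. Letters found and their distances therefore depend on the start that the promoter entry uses. DTL lies at chr1:212035498-212035797 (+ strand) and held CCAAT and an E2F-type match, in capitals.
POLE3: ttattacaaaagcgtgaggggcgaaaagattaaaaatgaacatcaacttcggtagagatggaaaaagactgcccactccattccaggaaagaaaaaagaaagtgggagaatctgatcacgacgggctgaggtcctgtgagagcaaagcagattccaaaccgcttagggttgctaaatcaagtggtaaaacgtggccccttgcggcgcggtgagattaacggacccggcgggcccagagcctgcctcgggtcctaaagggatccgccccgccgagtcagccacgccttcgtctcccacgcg
DTL: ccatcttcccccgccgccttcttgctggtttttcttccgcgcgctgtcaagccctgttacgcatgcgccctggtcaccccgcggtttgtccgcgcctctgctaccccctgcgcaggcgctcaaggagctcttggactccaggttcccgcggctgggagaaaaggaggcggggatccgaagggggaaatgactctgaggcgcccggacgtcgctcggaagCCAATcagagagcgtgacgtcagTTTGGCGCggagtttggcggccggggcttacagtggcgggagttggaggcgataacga

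The calls were also counted for members with and without an E2F-type match. In siSIRT6 17 of 23 tested members with a match were lower than control and 1 was higher, while of 27 without a match 18 were lower and 1 was higher. In siKDM5C 8 of 23 with a match were higher and 3 were lower, while of 27 without a match 13 were higher and 5 were lower. Outside the list, the 525 tested genes with a match were lower in siSIRT6 in 30.7% of cases and higher in 21.0%, and the 9214 without a match were lower in 28.0% and higher in 27.4%. In siKDM5C the 525 genes were higher in 25% of cases and lower in 28.8%, and the 9214 genes were higher in 28.2% and lower in 28.0%.

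The licensing genes were lower in siSIRT6 with 1 exception. Of 12, 11 were lower, with a median log2 fold change of -0.44, and MCM3 did not pass. In siKDM5C 4 were higher (ORC1, CDC6, MCM4 and MCM5), 1 was lower (ORC2) and 7 did not pass. Between the knockdowns 11 of 12 were lower in siSIRT6 (background 21.3%) and ORC2 was higher (background 18.6%).

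MCM7, a subunit of the helicase motor, had 17.8, 17.3 and 19.1 FPKM in siSIRT6, 39.5, 29.5 and 35.9 FPKM in siKDM5C, and 35.5, 34.9 and 41.9 FPKM in control. The siSIRT6 libraries lay below all others, at 48.3% of the control mean, and the siKDM5C and control libraries overlapped. The fold change of MCM7 on the log2 scale was -1.01 (SE 0.11, adjusted p = 0.000128) in siSIRT6 and -0.10 (SE 0.11, adjusted p = 0.476) in siKDM5C. MCM7 shares 8.9% of its exon bases with AP4M1 on the opposite strand.

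The other helicase subunits had smaller fold changes than MCM7 in siSIRT6. In siSIRT6 the log2 fold change was -0.67 for MCM2, -0.36 for MCM5, -0.35 for MCM4 and -0.29 for MCM6, all called lower. MCM3 had -0.14 (SE 0.06, adjusted p = 0.0811), although its siSIRT6 libraries at 17.6 to 18.8 FPKM were all below its control libraries at 19.6 to 20.7 FPKM. MCM3 was called lower there with only the compared groups fitted, with the trend on GC content and length removed and without siKDM5C replicate 2, at adjusted p = 0.0296 to 0.0409. In siKDM5C MCM4 (0.26) and MCM5 (0.27) were higher, while MCM2 (-0.14), MCM3 (0.16), MCM6 (0.02) and MCM7 did not pass. The MCM5 call did not survive leaving out siKDM5C replicate 3, control replicate 1 or control replicate 2, with adjusted p = 0.0521 to 0.0751.

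**Figure D3:**
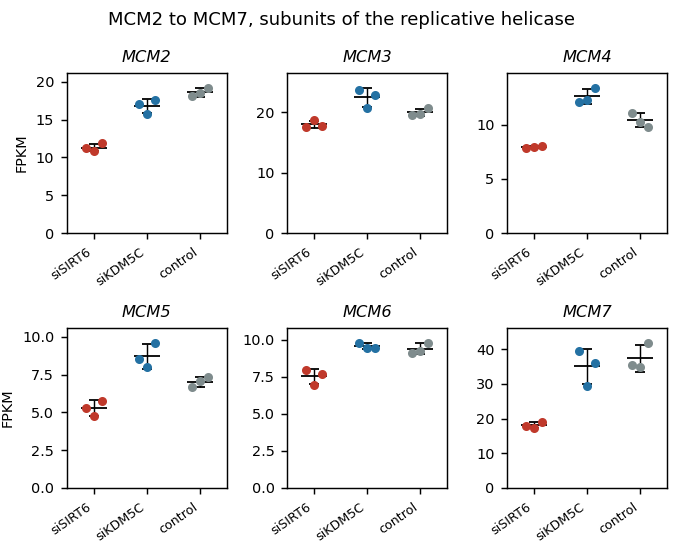
FPKM of MCM2 to MCM7 (y axis, from 0) in the 3 siSIRT6, 3 siKDM5C and 3 control libraries; points are libraries, the bar is the mean and the whiskers are SD. The siSIRT6 libraries lie lowest in every panel, and the gap is widest for MCM7, at 18.1 FPKM against 37.4 FPKM in control.

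Among the loaders, ORC1, the largest subunit of the origin recognition complex, had 2.38, 2.39 and 2.10 FPKM in siSIRT6, 5.18, 5.91 and 5.80 FPKM in siKDM5C, and 3.91, 3.70 and 3.69 FPKM in control. No groups overlapped, with control in the middle. ORC1 was lower in siSIRT6 (-0.54, SE 0.06, adjusted p = 0.0002), higher in siKDM5C (0.48, SE 0.06, adjusted p = 0.000385), and lower in siSIRT6 than in siKDM5C by 1.01 on the log2 scale (adjusted p = 1.36e-05).

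CDC6, the ATPase that joins this complex to load the helicase, had 3.14, 3.61 and 3.09 FPKM in siSIRT6, 7.56, 6.99 and 6.64 FPKM in siKDM5C, and 4.98, 4.79 and 5.74 FPKM in control. The order of the groups was that of ORC1, again without overlap. Against control, CDC6 had log2 fold changes of -0.53 (SE 0.08, adjusted p = 0.000732) in siSIRT6 and 0.39 (SE 0.08, adjusted p = 0.00363) in siKDM5C.

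ORC2, another origin recognition subunit, had its groups in another order. It had 6.14, 6.48 and 6.02 FPKM in siSIRT6, 4.40, 4.83 and 4.21 FPKM in siKDM5C, and 8.18, 8.48 and 7.55 FPKM in control. Both knockdowns lay below control, and the siKDM5C libraries were the lowest. The log2 fold change was -0.33 (SE 0.06, adjusted p = 0.00259) in siSIRT6 and -0.73 (SE 0.06, adjusted p = 3.34e-05) in siKDM5C, and siSIRT6 exceeded siKDM5C by 0.40 (adjusted p = 0.00146).

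The remaining licensing genes were lower in siSIRT6 and did not pass in siKDM5C. ORC6, the smallest subunit of the complex, averaged 2.14 ± 0.13 FPKM in siSIRT6, 4.18 ± 0.27 FPKM in siKDM5C and 3.81 ± 0.16 FPKM in control (SD, n = 3 each). CDT1, which brings the helicase to the origin, averaged 3.59 FPKM in siSIRT6, 6.19 FPKM in siKDM5C and 5.54 FPKM in control, with a log2 fold change of -0.51 in siSIRT6 and 0.13 in siKDM5C. GMNN encodes geminin, the inhibitor of CDT1, and had -0.33 in siSIRT6 and -0.07 in siKDM5C. Its call between the knockdowns (-0.26, adjusted p = 0.0274) did not survive leaving out siSIRT6 replicate 1, siSIRT6 replicate 3 or siKDM5C replicate 1, with adjusted p = 0.0653 to 0.0976. It was also lost with no filter on low values, with median-of-ratios scaling and with a replicate block, at adjusted p = 0.0524 to 0.0563.

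The helicase activation genes split by subunit. In siSIRT6 5 of 8 were lower (MCM10, CDC45, CDC7, DBF4 and GINS1) and 3 did not pass (GINS2, GINS3 and GINS4). In siKDM5C 5 were higher (MCM10, CDC45, GINS2, GINS3 and GINS4), 2 were lower (CDC7 and DBF4), and GINS1 did not pass. The kinase pair CDC7 and DBF4 and the helicase cofactors thus had opposite signs in siKDM5C.

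CDC45, the helicase cofactor that joins MCM and GINS, had 1.91, 2.10 and 2.13 FPKM in siSIRT6, 6.26, 4.72 and 5.63 FPKM in siKDM5C, and 3.08, 2.78 and 3.20 FPKM in control. The 3 groups did not overlap. It was lower in siSIRT6 (-0.40, SE 0.09, adjusted p = 0.00618) and higher in siKDM5C (0.70, SE 0.09, adjusted p = 0.000316), a difference of -1.09 between the knockdowns (adjusted p = 4.65e-05).

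MCM10, which is needed for the assembled helicase to start, had 1.24, 1.21 and 1.19 FPKM in siSIRT6, 3.59, 3.60 and 3.02 FPKM in siKDM5C, and 2.79, 2.63 and 2.54 FPKM in control. The siSIRT6 libraries were at 45.8% of the control mean, and the siKDM5C libraries were above every control library. The fold change of MCM10 on the log2 scale was -0.72 (SE 0.07, adjusted p = 5.35e-05) in siSIRT6 and 0.27 (SE 0.07, adjusted p = 0.0105) in siKDM5C.

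DBF4, the regulatory subunit of the CDC7 kinase that fires origins, had 5.22, 5.48 and 4.69 FPKM in siSIRT6, 6.43, 8.94 and 6.07 FPKM in siKDM5C, and 12.3, 12.4 and 10.4 FPKM in control. All knockdown libraries lay below all control libraries. DBF4 was lower in siSIRT6 (-1.05, SE 0.13, adjusted p = 0.000246) and in siKDM5C (-0.65, SE 0.13, adjusted p = 0.00314). The difference between the knockdowns was -0.40 (adjusted p = 0.0389), and this call was lost without any 1 of 6 libraries, namely the 3 siSIRT6 replicates, siKDM5C replicate 2 and control replicates 1 and 2 (adjusted p = 0.0525 to 0.12). It was also lost with no filter on low values (adjusted p = 0.0891) and with only the compared groups fitted (adjusted p = 0.063).

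CDC7, the catalytic subunit, averaged 4.75 FPKM in siSIRT6, 4.76 FPKM in siKDM5C and 6.00 FPKM in control. Its adjusted p of 0.0469 in siSIRT6 and 0.0427 in siKDM5C stood close to the threshold. The siSIRT6 call was lost without any siSIRT6 replicate, without siKDM5C replicate 1 and without any control replicate (adjusted p = 0.058 to 0.135). The siKDM5C call was lost without any single library other than siKDM5C replicate 2 (adjusted p = 0.0544 to 0.127). Rescaling each library to the same sum gave -0.18 in both knockdowns (adjusted p = 0.201 in siSIRT6 and 0.197 in siKDM5C), and both calls were also lost with no filter on low values (adjusted p = 0.0996 and 0.0903). Median-of-ratios scaling ended the siSIRT6 call (adjusted p = 0.0665), and fitting only the compared groups ended the siKDM5C call (adjusted p = 0.0814).

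GINS1, 1 of the 4 subunits of the GINS complex, had 2.93, 2.88 and 3.32 FPKM in siSIRT6, 8.67, 8.18 and 6.57 FPKM in siKDM5C, and 6.56, 6.14 and 6.72 FPKM in control. The siSIRT6 libraries lay below all others, and the siKDM5C and control libraries overlapped. Against control, GINS1 had log2 fold changes of -0.89 (SE 0.09, adjusted p = 0.000103) in siSIRT6 and 0.23 (SE 0.09, adjusted p = 0.0694) in siKDM5C. The siKDM5C value passed without siKDM5C replicate 3 (0.34, adjusted p = 0.00512). It also passed when each library was rescaled (0.34, adjusted p = 0.0137) and with the trend on GC content and length removed (0.29, adjusted p = 0.0171).

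The other GINS subunits were called in siKDM5C and not in siSIRT6. GINS3 averaged 0.91 ± 0.07 FPKM in siSIRT6, 2.42 ± 0.10 FPKM in siKDM5C and 1.14 ± 0.05 FPKM in control (SD, n = 3 each). GINS4 averaged 1.20 FPKM in siSIRT6, 2.34 FPKM in siKDM5C and 1.25 FPKM in control. GINS2 averaged 1.41 FPKM in siSIRT6, 2.31 FPKM in siKDM5C and 1.45 FPKM in control. All 3 were higher in siKDM5C, with log2 fold changes of 0.68, 0.57 and 0.43 for GINS3, GINS4 and GINS2, and lower in siSIRT6 than in siKDM5C. In siSIRT6 the log2 fold change was -0.16 for GINS3 (adjusted p = 0.0538), -0.04 for GINS4 and -0.03 for GINS2. All 3 siSIRT6 libraries of GINS3 lay below control, and with a pseudocount of 0.1 GINS3 was called lower there (-0.30, adjusted p = 0.0407).

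The sliding clamp and its loader held the widest contrast between the knockdowns after POLE3, in PCLAF. In siSIRT6 4 of 7 genes were lower (PCNA, PCLAF, RFC3 and RFC4) and 3 did not pass. The lower ones were 57.1%, where 26.9% of all tested genes were lower. In siKDM5C PCLAF and RFC2 were higher, RFC3 was lower and 4 did not pass.

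PCLAF, a small protein that binds PCNA, had 4.20, 4.34 and 4.41 FPKM in siSIRT6, 15.8, 14.1 and 14.3 FPKM in siKDM5C, and 7.71, 7.38 and 8.78 FPKM in control. The 3 groups were far apart, with siSIRT6 at 54.3% and siKDM5C at 185% of the control mean. The log2 fold change was -0.75 (SE 0.07, adjusted p = 5.14e-05) in siSIRT6 and 0.82 (SE 0.07, adjusted p = 3.15e-05) in siKDM5C, and the difference between the knockdowns was -1.57 (adjusted p = 2.49e-06). PCLAF is among the members that share exon bases with another gene on the same strand (28.8%).

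PCNA, the clamp itself, was the most abundant member in all 3 groups. It averaged 42.3 ± 0.45 FPKM in siSIRT6, 53.0 ± 3.23 FPKM in siKDM5C and 48.6 ± 2.17 FPKM in control (SD, n = 3 each). The fall in siSIRT6 was small (-0.20, adjusted p = 0.019), and its call ended on leaving out siSIRT6 replicate 1, siSIRT6 replicate 2 or control replicate 1, with adjusted p = 0.0563 to 0.0747. The siSIRT6 call was also lost when each library was rescaled (-0.07, adjusted p = 0.396) and with the trend on GC content and length removed (-0.13, adjusted p = 0.0956). The siKDM5C value of 0.12 did not pass, but it did under those same settings (0.25, adjusted p = 0.0139, and 0.16, adjusted p = 0.039).

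RFC3, a subunit of the clamp loader, had 3.15, 3.35 and 3.42 FPKM in siSIRT6, 3.26, 3.27 and 2.41 FPKM in siKDM5C, and 6.44, 6.64 and 6.60 FPKM in control. Both knockdowns lay below control and overlapped each other. The fold change of RFC3 on the log2 scale was -0.81 (SE 0.09, adjusted p = 0.000118) in siSIRT6 and -0.93 (SE 0.09, adjusted p = 5.38e-05) in siKDM5C, with 0.12 between the knockdowns (adjusted p = 0.305).

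The other loader subunits each had a pattern of their own. RFC4 was lower in siSIRT6 (-0.75) and had -0.11 in siKDM5C, which did not pass. RFC2 was higher in siKDM5C (0.31) and had -0.04 in siSIRT6, which did not pass. RFC1, the large subunit, and RFC5 passed neither comparison with control, with values of -0.19 and -0.17 in siSIRT6 and 0.03 and -0.20 in siKDM5C. All siSIRT6 libraries of both genes lay below control. RFC1 was called lower in siSIRT6 under 3 of the 17 alternatives (adjusted p = 0.00922 to 0.0496). Without siKDM5C replicate 2, RFC5 was called lower in siSIRT6 (adjusted p = 0.0471) and in siKDM5C (-0.31, adjusted p = 0.00713).

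The polymerase genes held the largest change of the list. In siSIRT6 9 of 11 were lower, with a median log2 fold change of -0.33, and POLD2 and POLE4 did not pass. In siKDM5C 4 were higher (POLA2, PRIM1, POLD1 and POLE), 1 was lower (POLD2) and 6 did not pass.

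POLE3 encodes a small histone-fold subunit of the leading-strand polymerase epsilon and lies on chromosome 9 at 113407235 to 113410672. It had 6.41, 6.77 and 6.51 FPKM in siSIRT6, 32.1, 25.9 and 28.3 FPKM in siKDM5C, and 25.9, 26.2 and 25.8 FPKM in control. The siSIRT6 libraries were at 25.3% of the control mean, and the siKDM5C and control libraries overlapped. Against control, POLE3 had log2 fold changes of -1.83 (SE 0.07, adjusted p = 6.68e-07) in siSIRT6 and 0.14 (SE 0.07, adjusted p = 0.146) in siKDM5C.

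The other subunits of polymerase epsilon did not share this size. POLE4, the histone-fold partner of POLE3, had 13.3, 12.9 and 14.7 FPKM in siSIRT6, 12.3, 8.70 and 12.4 FPKM in siKDM5C, and 12.3, 10.7 and 14.3 FPKM in control. It did not pass in siSIRT6 (0.13), in siKDM5C (-0.15) or between the knockdowns (0.29, adjusted p = 0.141). The last difference passed with a replicate block (0.29, adjusted p = 0.0373) and with the trend on GC content and length removed (0.35, adjusted p = 0.0423). POLE2 was lower in siSIRT6 (-0.55), and POLE, the catalytic subunit, was lower in siSIRT6 (-0.25) and higher in siKDM5C (0.30). The siSIRT6 call of POLE was lost when each library was rescaled (-0.15, adjusted p = 0.114).

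POLD2, the regulatory subunit of the lagging-strand polymerase delta, had 28.4, 27.7 and 29.3 FPKM in siSIRT6, 19.7, 16.3 and 17.9 FPKM in siKDM5C, and 29.2, 27.5 and 35.8 FPKM in control. Only the siKDM5C libraries stood apart, below all others. The log2 fold change was -0.10 (SE 0.10, adjusted p = 0.431) in siSIRT6 and -0.74 (SE 0.10, adjusted p = 0.000435) in siKDM5C. POLD1, the catalytic subunit, had -0.45 in siSIRT6 and 0.31 in siKDM5C, both called, but leaving out control replicate 2 ended the siKDM5C call (adjusted p = 0.0555). POLD3, a further subunit, was lower in siSIRT6 (-0.48) and had 0.00 in siKDM5C.

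POLA2, the accessory subunit of the polymerase alpha and primase complex that starts each new strand, had 4.45, 4.50 and 4.84 FPKM in siSIRT6, 8.23, 8.56 and 8.95 FPKM in siKDM5C, and 5.93, 5.82 and 5.5 FPKM in control. No library of 1 group overlapped another group. The fold change of POLA2 on the log2 scale was -0.27 (SE 0.05, adjusted p = 0.00316) in siSIRT6 and 0.50 (SE 0.05, adjusted p = 0.000103) in siKDM5C. The siSIRT6 call was lost when each library was rescaled to the same sum (-0.16, adjusted p = 0.0602).

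The other 3 subunits of that complex were all lower in siSIRT6. POLA1, the catalytic subunit, had -0.27, PRIM1, the primase, had -0.38, and PRIM2, its large subunit, had -0.33. POLA1 averaged 0.713 FPKM in siSIRT6 and 1.07 FPKM in control, a level at which the pseudocount of 1 shrinks a fold change, and a pseudocount of 0.1 gave -0.53. As a share of the control mean, siSIRT6 stood at 66.5% for POLA1, 70.3% for PRIM1 and 74.8% for PRIM2. In siKDM5C only PRIM1 passed (0.31, adjusted p = 0.027). Leaving out siKDM5C replicate 1 or 2, or control replicate 2 or 3, ended that call, with adjusted p = 0.0529 to 0.0761, as did using no filter on low values (adjusted p = 0.0615) and fitting only the compared groups (adjusted p = 0.051).

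Genes of the lagging strand and single-strand binding were all lower in siSIRT6, 5 of 5, with log2 fold changes of -0.81 to -0.32. In siKDM5C 1 of 5, FEN1, was higher and 4 did not pass. Between the knockdowns 4 of 5 were lower in siSIRT6, where 21.3% of all tested genes were lower.

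FEN1, the nuclease that trims the flaps of lagging-strand fragments, had 13.8, 13.6 and 14.4 FPKM in siSIRT6, 33.0, 31.6 and 36.1 FPKM in siKDM5C, and 25.3, 24.1 and 26.4 FPKM in control. The groups did not overlap. It was lower in siSIRT6 (-0.81, SE 0.06, adjusted p = 1.62e-05) and higher in siKDM5C (0.40, SE 0.06, adjusted p = 0.000879), and the knockdowns differed by -1.21 (adjusted p = 4.8e-06).

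RPA2, a subunit of the protein that coats single-stranded DNA, had 16.4, 17.6 and 17.0 FPKM in siSIRT6, 27.4, 24.5 and 25.5 FPKM in siKDM5C, and 23.0, 25.4 and 25.8 FPKM in control. The siSIRT6 libraries were below all others, and siKDM5C overlapped control. Against control, RPA2 had log2 fold changes of -0.51 (SE 0.06, adjusted p = 0.000243) in siSIRT6 and 0.06 (SE 0.06, adjusted p = 0.463) in siKDM5C.

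Of the others, LIG1, the ligase that joins the fragments, had -0.46 in siSIRT6 and -0.06 in siKDM5C. RPA1, the largest subunit of the same coat, had -0.34 and 0.04, and RPA3, the smallest, had -0.32 and -0.11. The RPA3 call in siSIRT6 (adjusted p = 0.0132) ended on leaving out siSIRT6 replicate 1 (adjusted p = 0.0505) and on rescaling each library (-0.21, adjusted p = 0.0735).

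The genes of chromatin copying and CDT1 turnover held the largest rises in siKDM5C. There 4 of 5 were higher (CHAF1A, CHAF1B, DTL and DNMT1) and UHRF1 was lower. In siSIRT6 2 were lower (UHRF1 and DNMT1) and 3 did not pass.

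DTL, which directs a ubiquitin ligase to CDT1 on PCNA-loaded DNA, had 5.62, 5.46 and 5.51 FPKM in siSIRT6, 15.2, 16.3 and 13 FPKM in siKDM5C, and 6.76, 6.61 and 6.14 FPKM in control. The siKDM5C libraries stood at 228% of the control mean, and the siSIRT6 libraries lay just below control without overlap. The log2 fold change was 1.07 (SE 0.08, adjusted p = 1.27e-05) in siKDM5C and -0.20 (SE 0.08, adjusted p = 0.0583) in siSIRT6. The siSIRT6 value passed on leaving out siKDM5C replicate 2 (adjusted p = 0.0317) or 3 (adjusted p = 0.0107), libraries that enter it only through the shared estimate of spread. It also passed with a pseudocount of 0.1, with only the compared groups fitted, with a replicate block and with the trend on GC content and length removed, at adjusted p = 0.0112 to 0.048.

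CHAF1A, the large subunit of the factor that places histones on new DNA, had 4.22, 3.91 and 3.92 FPKM in siSIRT6, 9.67, 8.55 and 8.94 FPKM in siKDM5C, and 4.15, 4.10 and 4.95 FPKM in control. The siSIRT6 and control libraries overlapped, and siKDM5C lay above both. The fold change of CHAF1A on the log2 scale was 0.90 (SE 0.07, adjusted p = 2.66e-05) in siKDM5C and -0.10 (SE 0.07, adjusted p = 0.274) in siSIRT6. CHAF1B, its partner, had 0.57 in siKDM5C, which was called, and 0.14 in siSIRT6, which did not pass.

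The maintenance methylation pair differed between members in siKDM5C. UHRF1, which recognises half-methylated DNA, averaged 7.66 ± 0.18 FPKM in siSIRT6, 7.52 ± 0.45 FPKM in siKDM5C and 10.3 ± 0.33 FPKM in control (SD, n = 3 each), and was lower in both (-0.39 and -0.41). DNMT1, the methyltransferase it recruits, averaged 5.35 FPKM in siSIRT6, 8.60 FPKM in siKDM5C and 7.43 FPKM in control, and was lower in siSIRT6 (-0.41) and higher in siKDM5C (0.19). The DNMT1 call in siKDM5C was lost with the trend on GC content and length removed (0.10, adjusted p = 0.0698).

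The genes of nucleotide supply fell in siSIRT6 in 3 of 4 cases (RRM2, TYMS and TK1), and RRM1 did not pass. In siKDM5C RRM1 and RRM2 were higher, and TYMS and TK1 did not pass. All 4 were lower in siSIRT6 than in siKDM5C, where 21.3% of all tested genes were lower.

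RRM2, the small subunit of ribonucleotide reductase, which makes deoxynucleotides, had 5.72, 5.99 and 6.56 FPKM in siSIRT6, 12.2, 14.1 and 13.5 FPKM in siKDM5C, and 8.25, 7.96 and 7.31 FPKM in control. The 3 groups did not overlap. Against control, RRM2 had log2 fold changes of -0.32 (SE 0.07, adjusted p = 0.00635) in siSIRT6 and 0.69 (SE 0.07, adjusted p = 9.56e-05) in siKDM5C. The siSIRT6 call was lost when each library was rescaled to the same sum (-0.21, adjusted p = 0.0668). RRM1, the large subunit, had 0.65 in siKDM5C, which was called, and -0.13 in siSIRT6.

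TK1, the kinase that salvages thymidine in S phase, had 12.5, 11.8 and 14.8 FPKM in siSIRT6, 28.2, 24.9 and 31.3 FPKM in siKDM5C, and 26.1, 24.6 and 29 FPKM in control. The siSIRT6 libraries stood at 49.2% of the control mean, and siKDM5C overlapped control. The log2 fold change was -0.97 (SE 0.11, adjusted p = 0.000128) in siSIRT6 and 0.08 (SE 0.11, adjusted p = 0.567) in siKDM5C. TYMS, which makes thymidylate anew, had -0.61 in siSIRT6 and -0.02 in siKDM5C. TYMS shares 46.6% of its exon bases with ENOSF1 on the opposite strand, which had -0.51 in siSIRT6 and -0.19 in siKDM5C, so its value is uncertain.

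The E2F factors and cyclin E did not move as a block. In siSIRT6 E2F1 and CCNE1 were higher, E2F3 and E2F8 were lower, and E2F7 and CCNE2 did not pass. In siKDM5C E2F1, E2F7 and CCNE2 were higher, E2F3 and CCNE1 were lower, and E2F8 did not pass. Between the knockdowns 4 of 6 tested genes were lower in siSIRT6 (E2F1, E2F7, E2F8 and CCNE2) and CCNE1 was higher. The backgrounds were 21.3% lower and 18.6% higher.

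E2F1, an activator of S-phase genes, had 7.01, 7.14 and 6.91 FPKM in siSIRT6, 11.2, 8.28 and 9.33 FPKM in siKDM5C, and 4.80, 5.26 and 5.48 FPKM in control. Both knockdowns lay above every control library. The fold change of E2F1 on the log2 scale was 0.38 (SE 0.10, adjusted p = 0.01) in siSIRT6 and 0.77 (SE 0.10, adjusted p = 0.000233) in siKDM5C, and siSIRT6 was lower than siKDM5C by 0.39 (adjusted p = 0.0109).

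E2F3, a second activator, had 9.43, 8.46 and 8.14 FPKM in siSIRT6, 9.20, 10.8 and 9.18 FPKM in siKDM5C, and 15.4, 15.1 and 13.1 FPKM in control. Both knockdowns lay below control and overlapped each other. Against control, E2F3 had log2 fold changes of -0.68 (SE 0.09, adjusted p = 0.0003) in siSIRT6 and -0.53 (SE 0.09, adjusted p = 0.00113) in siKDM5C. E2F2, the remaining activator, had 0.0651, 0.0569 and 0.0748 FPKM in siSIRT6, 0.201, 0.208 and 0.126 FPKM in siKDM5C, and 0.191, 0.163 and 0.147 FPKM in control, from 6 to 21 reads, and was not tested.

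The atypical repressors E2F7 and E2F8 differed from each other. E2F7 averaged 14.2 ± 0.41 FPKM in siSIRT6, 22.6 ± 2.5 FPKM in siKDM5C and 12.3 ± 0.62 FPKM in control (SD, n = 3 each), and was higher in siKDM5C (0.83, adjusted p = 5.71e-05) but did not pass in siSIRT6 (0.19, adjusted p = 0.0689). All 3 siSIRT6 libraries of E2F7 lay above control, and it was called higher under 6 of the 17 alternatives, among them rescaling each library (0.31, adjusted p = 0.0159) and removing the trend on GC content and length (0.20, adjusted p = 0.0121). E2F8 averaged 0.59 ± 0.05 FPKM in siSIRT6, 1.42 ± 0.21 FPKM in siKDM5C and 1.60 ± 0.18 FPKM in control, and was lower in siSIRT6 (-0.71, adjusted p = 0.000257; -1.30 with a pseudocount of 0.1) but did not pass in siKDM5C (-0.11, adjusted p = 0.339).

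CCNE1, the cyclin that activates CDK2 at the end of G1, had 10.6, 10.5 and 10.7 FPKM in siSIRT6, 6.96, 6.74 and 6.62 FPKM in siKDM5C, and 7.75, 7.52 and 8.19 FPKM in control. Its groups did not overlap, and their order was the reverse of that of ORC1 and PCLAF. The log2 fold change was 0.40 (SE 0.05, adjusted p = 0.000196) in siSIRT6 and -0.18 (SE 0.05, adjusted p = 0.0116) in siKDM5C, and siSIRT6 exceeded siKDM5C by 0.58 (adjusted p = 4.33e-05). The siKDM5C call was lost when each library was rescaled (-0.07, adjusted p = 0.268) and when only the compared groups were fitted (adjusted p = 0.0509). CCNE2, its close relative, was higher in siKDM5C (0.37) and had -0.10 in siSIRT6, but it shares 37.1% of its exon bases with INTS8 on the opposite strand.

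**Figure D4:**
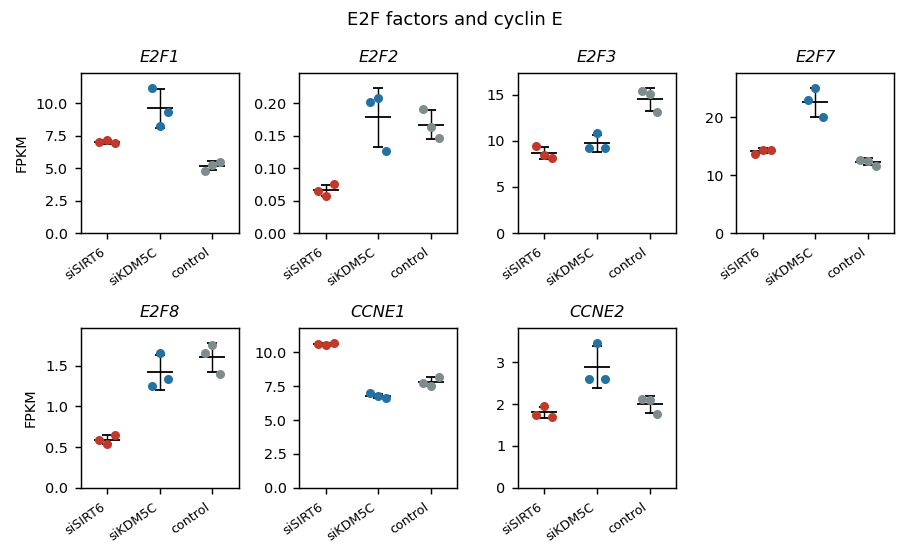
FPKM (y axis, from 0) of the 5 E2F factors and both E-type cyclins in the 3 siSIRT6, 3 siKDM5C and 3 control libraries; points are libraries, the bar is the mean and the whiskers are SD. E2F1 is above control in both knockdowns, E2F3 is below control in both, and CCNE1 is highest in siSIRT6 at 10.6 FPKM.

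**Figure D5:**
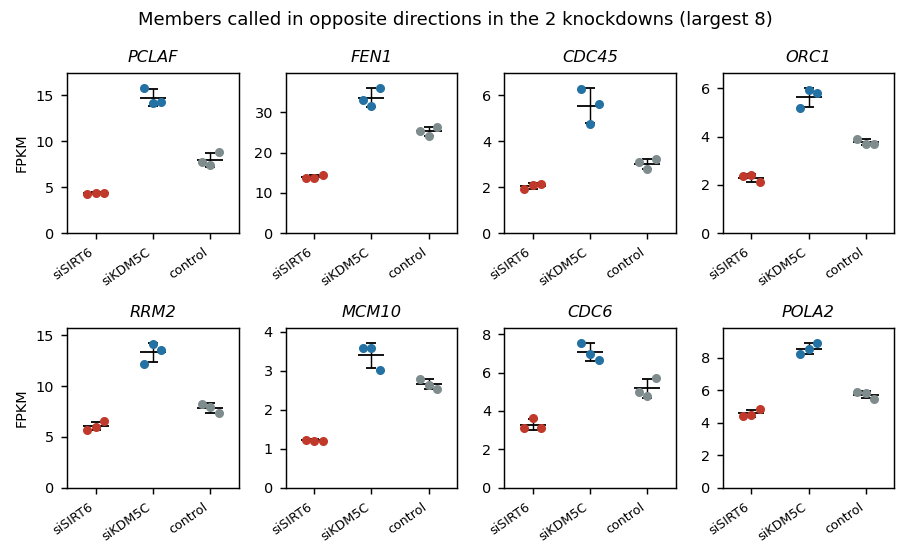
FPKM (y axis, from 0) of the 8 members with the largest difference between the knockdowns among those called in opposite directions against the shared control; points are libraries, the bar is the mean and the whiskers are SD. In all 8 panels the siSIRT6 libraries are lowest, the control libraries lie between, and the siKDM5C libraries are highest, without overlap. This order follows largely from choosing members by opposite calls. Of 15 members called in opposite directions, 7 kept these calls under every setting that tested them. RRM2 and POLA2 are not among those 7.

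Other genes of the same processes were kept as separate lists and are given beside the members. Of 24 tested further genes of the fork and of origins, 13 were lower and 2 were higher in siSIRT6, and 6 were lower and 4 were higher in siKDM5C. These calls were 62.5% and 41.7% of the list, against backgrounds of 50.8% and 51.5%. The 2 that were higher in siSIRT6 were the topoisomerase TOP1, which relaxes DNA ahead of the fork, and POLD4, the smallest subunit of polymerase delta. POLD4 averaged above control in both knockdowns, with log2 fold changes of 1.17 in siSIRT6 and 1.16 in siKDM5C, and TOP1 had 1.20 and 0.90.

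Of 12 further G1/S regulators, 9 were lower and 1 was higher in siSIRT6, and 5 were higher and 5 lower in siKDM5C. That is 83.3% called in each, against backgrounds of 50.8% and 51.5%. TFDP1, the partner with which E2F factors bind DNA, had 13.7, 13 and 13 FPKM in siSIRT6, 31.7, 29.7 and 28.8 FPKM in siKDM5C, and 17.4, 18.3 and 19.6 FPKM in control. The 3 groups did not overlap, and TFDP1 was lower in siSIRT6 (-0.45, adjusted p = 0.000369) and higher in siKDM5C (0.68, adjusted p = 3.61e-05). TFDP2, its relative, was higher in both (0.30 and 0.47). CCNA2, the S-phase cyclin, had -1.02 in siSIRT6 and -0.31 in siKDM5C, and FBXO5, an inhibitor of the anaphase-promoting complex, had -0.86 and -0.14, the last of which did not pass.

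Of 8 further nucleotide supply genes, 2 were lower and 1 was higher in siSIRT6, and 2 were lower and 1 was higher in siKDM5C, so that 37.5% were called in each, under the backgrounds of 50.8% and 51.5%. CTPS1, which makes CTP, was higher in siSIRT6 (0.61), and DTYMK, the thymidylate kinase, was lower there (-0.49). RRM2B, the alternative small subunit of ribonucleotide reductase, was lower in siKDM5C (-0.55), as was SAMHD1, which breaks down deoxynucleotides (-0.32). Of 7 further chromatin copying genes, 3 were lower and 1 was higher in siSIRT6, and 1 was lower and 1 was higher in siKDM5C, or 57.1% and 28.6% called against the same backgrounds. The histone chaperone NASP was higher in both (0.29 and 0.35), and the chromatin remodeller HELLS was lower in both (-0.74 and -0.53).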

How the data were processed

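Per the submitters' processing notes, Trimmomatic, HISAT2, Cufflinks, HTSeq and the hg38 build were used, with neither versions nor roles given. The authors deposited 1 FPKM value per gene and library, and that unit was read from the values. The sources used here give neither the annotation nor the strand counted, although the labels name a stranded kit. Low FPKM values are whole multiples of what 1 read is worth, which gave whole reads (tolerance 0.01) for all 59 members and the depth of each library.

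Values were tested as log2(FPKM + 1) with limma 3.58.1 (R 4.3.3, trend), in 1 fit of 9 libraries without further scaling, for 3 comparisons, adjusted over 16135 genes. Sums of FPKM differ between libraries, so rescaling each library is among the 17 alternatives run. The fit was tested on simulated data. Gene positions are those of GENCODE release 29. The labels name no batch. The members and lists were chosen with earlier results of these data known. Library values are given for both members per role group with the largest mean change, for the 8 members with opposite calls that differed most between the knockdowns, and for others chosen after their values were seen. From other lists, the 2 smallest adjusted p-values per knockdown comparison could be named.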

Additional observations from a re-analysis of the deposited data

How the results depend on the processing

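No call of a member turned its direction under any of the 17 alternatives. Rescaling each library to the same sum moved the median of all genes by 0.101 in siSIRT6 and 0.104 in siKDM5C against control, and gave 35 members lower and 4 higher in siSIRT6, and 32 higher and 6 lower in siKDM5C. Under it, 30.8% of all genes were higher and 18.1% lower in siSIRT6, and 33.0% higher and 16.8% lower in siKDM5C. The other counts stayed within 1.5 times: without 1 library, 38 to 44 members were lower and 2 to 3 higher in siSIRT6, 22 to 26 were higher and 7 to 9 lower in siKDM5C, and 45 to 48 were lower and 3 higher in siSIRT6 than in siKDM5C. With at least 5 FPKM as the filter, 43 members were tested. Deviations of same-numbered libraries from their group means had correlations of -0.229 to 0.252 over 9 pairs. Differently numbered siKDM5C and control libraries had -0.353 to 0.426. With 3 libraries per group, these correlations cannot show whether the numbers pair the libraries. A replicate block gave 42 lower and 2 higher in siSIRT6, 25 higher and 9 lower in siKDM5C, and 46 lower and 4 higher between the knockdowns. Over members called as reported, 20 of 721 repeats lost the call in siSIRT6, 24 of 552 in siKDM5C and 14 of 835 between the knockdowns. Over members not called, 23 of 250 repeats gained one in siSIRT6, 18 of 419 in siKDM5C and 7 of 136 between the knockdowns. Called values moved by over 1.5 times in 13, 7 and 6 of these repeats. At 43 reads, the shallowest tested values carry the largest counting error.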

Other observations

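Ratios of FPKM between partner genes were chosen after their values were seen and are given without a test. E2F7 over E2F8 was 24.0 ± 2.3 in siSIRT6, 16.1 ± 1.9 in siKDM5C and 7.68 ± 0.548 in control (SD, n = 3 each). CCNE1 over CCNE2 was 5.92 ± 0.491 in siSIRT6, 2.39 ± 0.391 in siKDM5C and 3.95 ± 0.595 in control. POLE3 over POLE4 was 0.483 ± 0.0403 in siSIRT6, 2.62 ± 0.344 in siKDM5C and 2.12 ± 0.324 in control, where the siKDM5C and control libraries overlapped. MCM3 over MCM7 was 1.0 ± 0.0792 in siSIRT6, 0.647 ± 0.0504 in siKDM5C and 0.536 ± 0.0373 in control. RRM2 over RRM1 was 0.335 ± 0.0247 in siSIRT6, 0.419 ± 0.0551 in siKDM5C and 0.392 ± 0.0177 in control, and here too the siKDM5C and control libraries overlapped. For the other 3 ratios no groups overlapped.

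TOP2A, a topoisomerase of the fork and of mitosis, was chosen after its values were seen. It had 17.2 FPKM in every siSIRT6 library, 35.9, 39.2 and 29.9 FPKM in siKDM5C, and 40.7, 40.0 and 37.5 FPKM in control, with log2 fold changes of -1.15 (adjusted p = 1.83e-05) and -0.17 (adjusted p = 0.136). Reads can also be shared with pseudogenes: 18 are named after 10 of the members, 6 of them had values, and the highest reached 0.407 FPKM.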
